A study of Mus musculus with 24 samples.

Results

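The 10 genes studied here govern the G1 phase of the cell cycle and were followed in mouse CD8+ T cells through the day after T cell receptor stimulation. They are the D cyclin genes Ccnd1, Ccnd2 and Ccnd3, the E cyclin genes Ccne1 and Ccne2, the kinase genes Cdk4 and Cdk6, and the kinase inhibitor genes Cdkn1a, Cdkn1b and Cdkn2c. They were chosen by name, as 10 of the 23420 genes in the files, and all 10 were among the 11470 genes that passed the filter on low counts. Cells of 6 mice were isolated with CD8 microbeads from spleen and lymph nodes and sampled before plating (0 h) and 4, 8 and 24 h after plating on anti-CD3 and anti-CD28 antibody (coated at 1 ug/mL) with murine IL2 (6 ng/mL). Each library was made with the Smart-seq2 protocol from 1000 sorted cells.

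All 6 mice carried floxed alleles of Tcf7 (Tcf7FL/FL), the gene of the transcription factor TCF1, and the OT-I T cell receptor transgene (OTI+). Mice 1 to 3 carried E8i-cre (E8i-cre+) and are called cKO, and mice 4 to 6 lacked it (E8i-cre-) and are called WT, as labelled. E8i-cre acts in CD8 lineage cells, and the presence of the Cre transgene cannot be told apart from the loss of Tcf7 in this design. The 8 groups of genotype and time held 3 libraries each, 24 in all, and the same 3 mice of a genotype gave its libraries at all 4 times.

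A resting T cell sits outside the cycle, and stimulation brings it through G1 towards DNA replication. D cyclins bind CDK4 or CDK6 and begin the phosphorylation of the retinoblastoma protein RB, which frees E2F factors; cyclin E with CDK2 then drives entry into S phase. Inhibitors of the INK4 family, to which the product of Cdkn2c belongs, bind CDK4 and CDK6 alone, and those of the CIP/KIP family, p21 (Cdkn1a) and p27 (Cdkn1b), bind complexes of cyclin and kinase. Much of this control acts on proteins, which were not measured.

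The libraries held 5846265 to 9700397 expected counts. Libraries were separated by time along the first principal component, which held 55% of the variance. The composition of the libraries moved with time too: the share taken by the ribosomal RNA gene Rn45s lay between 16.2 and 18.9% in 0 h libraries, between 18.4 and 20.6% in those of 4 h, between 14.2 and 17.2% in those of 8 h and between 7.39 and 9.54% in those of 24 h. Genes with a count numbered 16210 to 17214 in 0 h libraries and 13694 to 14081 in those of 24 h. Leaving Rn45s out took away no call of a member and added some. These were Cdkn1a from 4 to 8 h in WT (log2 change -0.52, adjusted p = 0.0289), Ccnd2 from 4 to 8 h in cKO (-0.24, adjusted p = 0.0261) and Cdk6 from 8 to 24 h in cKO (0.39, adjusted p = 0.0263), by the edgeR test described below. The part of the rest of this shift in the results was not tested. A cKO library stood apart at 4 h, from mouse 3 (score -35.7; the whole 4 h range was -35.7 to -21.4). At 8 h the libraries of cKO mouse 2 and WT mouse 5 had the highest scores, 24 and 25.8, in a range that began at 5.14. Gene-level Tcf7 was 681 to 719 TPM (a share of all transcripts, corrected for transcript length) in the libraries labelled cKO and 499 to 567 in those labelled WT at 0 h. It was 251 to 271 against 180 to 205 at 4 h, 73.6 to 127 against 52.6 to 87.4 at 8 h, and 35.7 to 38.3 against 62.6 to 77 at 24 h, so that it was lower in cKO only at 24 h. Such a total also counts transcripts that lack the floxed part, so it does not check the deletion. The 5 CD8 T cell markers summed to 5000 to 5280 TPM in WT at 0 h and to 884 to 926 at 24 h, and the sum was higher in cKO without overlap at each time (5440 to 5710, then 2000 to 2050 against 1620 to 1830, 1250 to 1450 against 1000 to 1200, and 953 to 1050). Its part in the results was not tested. The 3 CD4 and regulatory T cell markers summed to 0.07 to 1.96. A list of 4 B cell markers summed to 0.91 to 52.4 TPM and one of stromal cell markers to 2.75 to 77.6, both highest at 0 h, so that they moved with time. These sums came mostly from Cd79b (0.77 to 52.4 TPM) and Pecam1 (2.65 to 76.7), while Col1a1 reached at most 0.44 in any library. Myeloid, dendritic and NK cell markers summed to at most 2.42, 6.4 and 1.15 TPM, and red blood cell markers reached 21.5 in a cKO library of 4 h. In bulk RNA, fewer cells that express a gene cannot be told apart from less RNA of it per cell.

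At rest, Cdk4 and Ccnd3 stood highest among the members. Their WT means at 0 h were 227 ± 8.27 TPM (SD, n = 3) and 226 ± 16.8, with overlapping ranges, followed by Ccnd2 at 130 ± 14. Ccne1 (28.2 ± 2.27) and Cdkn1b (25.5 ± 2.03) overlapped, as did Cdkn2c (8.4 ± 2.44) and Cdk6 (6.71 ± 1.48). Ccnd1 (0.953 ± 0.654), Ccne2 (0.63 ± 0.139) and Cdkn1a (0.13 ± 0.125) stood lowest. By 24 h the order in WT was Cdk4 (695 ± 17.4), Ccnd3 (294 ± 8.48), Ccnd2 (178 ± 5.94) and Ccne1 (125 ± 1.51), then Cdk6 (34.5 ± 0.836) and Ccne2 (33.5 ± 0.434), whose ranges overlapped. Cdkn1a (16.8 ± 2.07), Cdkn2c (4.53 ± 0.805), Cdkn1b (3.32 ± 0.0814) and Ccnd1 (0.487 ± 0.235) followed. So Cdkn1b moved from among the middle levels to near the bottom, while Ccne2 and Cdk6 passed it.

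**Figure D1:**
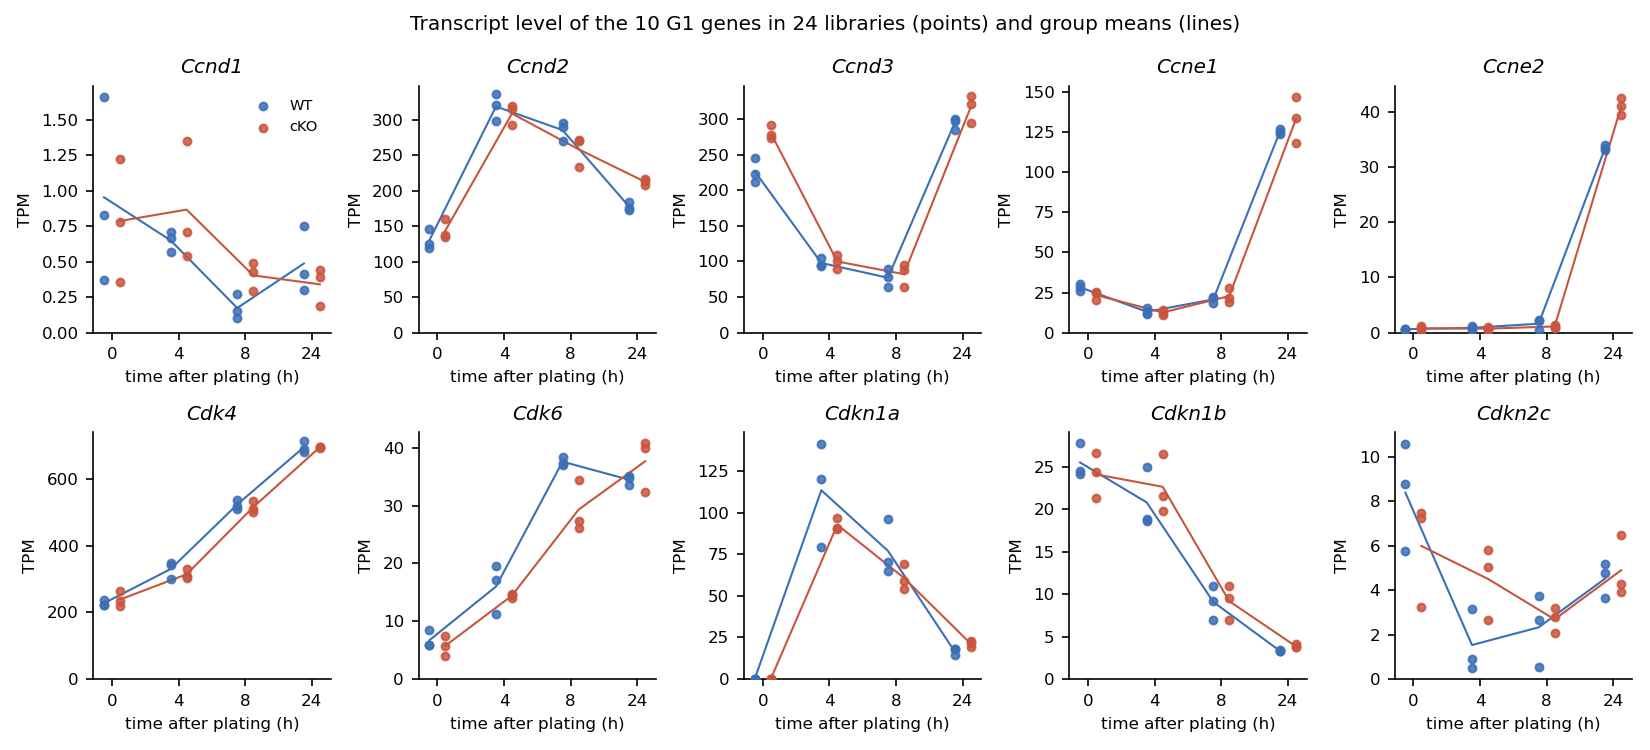
Level of each G1 gene in TPM (vertical axis, from 0, own scale per gene) at 0, 4, 8 and 24 h after plating (horizontal axis, evenly spaced). Points are libraries and lines join group means, WT in blue and cKO in red; Ccnd2 and Cdkn1a are highest at 4 h, Ccnd3 is lowest at 8 h, and Ccne1, Ccne2 and Cdk4 are highest at 24 h in both genotypes.

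Changes over time were tested with edgeR on the whole table, and a gene is called where its Benjamini-Hochberg adjusted p over 11470 genes is under 0.05. Much of the transcriptome changed over time, and the background is therefore high. The 0 h libraries were taken before plating, and no library came from cells plated without antibody and IL2. In changes from 0 h, the antibodies, IL2 and culture itself therefore cannot be told apart. In WT cells 7 of 10 members were called between 0 and 4 h, where 59% of all genes were. From 4 to 8 h 6 of 10 were called (41.6% of all genes), from 8 to 24 h 7 of 10 (58.7%), and between 0 and 24 h 8 of 10 (77%). In cKO cells the counts were 6, 6, 7 and 8 of 10, against 57.2%, 40.4%, 57.3% and 76.3% of all genes. The number of members called was near the share of genes that moved in general; which way each one moved, and when, is described below. The median change of the members in WT was 0.19, 0.31 and 0.53 over the 3 intervals on the log2 scale, against -0.04, 0.01 and -0.12 over all genes, and in cKO 0.13, -0.25 and 0.36 against 0, -0.01 and -0.09.

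The D cyclins moved in opposite directions. Ccnd2, the D cyclin of early lymphocyte activation, stood at 119, 125 and 146 TPM in the WT mice at 0 h and at 337, 321 and 299 at 4 h. In the cKO mice it went from 135, 160 and 137 to 293, 315 and 319. The 4 h libraries of both genotypes lay above every 0 h library. The rise was 2.64-fold in WT (log2 change 1.40, SE 0.096, adjusted p = 4.42e-15) and 2.28-fold in cKO (1.19, SE 0.0954, adjusted p = 2.94e-13). From 4 to 8 h Ccnd2 was not called, at -0.10 in WT (adjusted p = 0.443) and -0.22 in cKO (adjusted p = 0.0641). The cKO value was called under 7 of 16 alternatives, with adjusted p from 0.00995 to 0.254 over all of them. Ccnd2 then fell between 8 and 24 h, by 0.80 on the log2 scale in WT (SE 0.0945, adjusted p = 5.36e-09). In cKO it fell by 0.33 over that interval (SE 0.0941, adjusted p = 0.00307). Without mouse 2 or mouse 3 the cKO call was lost (log2 change -0.22 and -0.27). At 24 h it was still above its resting level, with 173 to 184 TPM in WT and 208 to 216 in cKO.

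Ccnd3, the D cyclin that resting T cells carry most of here, went the other way. WT libraries held 212, 223 and 245 TPM at 0 h and 94.3, 105 and 94.1 at 4 h; cKO libraries held 277, 291 and 274 and then 89.7, 101 and 109. No 4 h library reached the lowest 0 h library. Ccnd3 fell by 1.10 on the log2 scale in WT (SE 0.0957, adjusted p = 2.4e-12) and by 1.38 in cKO (SE 0.0957, adjusted p = 5.75e-15). A further small fall between 4 and 8 h (-0.32 in WT, adjusted p = 0.00764; -0.28 in cKO, adjusted p = 0.0218) rested on few libraries. Without mouse 5 the WT change was -0.23 and was not called, and without mouse 2 or mouse 3 the cKO change was -0.12 or -0.25 and was not called. From 8 to 24 h Ccnd3 rose 3.53-fold in WT (log2 change 1.82, SE 0.0971, adjusted p = 4.37e-18) and 3.7-fold in cKO (1.89, SE 0.0972, adjusted p = 1.67e-18). The 24 h libraries, at 285 to 300 TPM in WT and 294 to 333 in cKO, lay above all those of 0 h of the same genotype. The excess of 24 h over 0 h was small: 0.40 on the log2 scale in WT (adjusted p = 0.000203) and 0.24 in cKO (adjusted p = 0.0196; not called without mouse 1, at 0.21, or by limma on log2(TPM + 1), at 0.17).

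Ccnd1, the D cyclin of many non-lymphoid cells, was near the limit of detection, with 2 to 24 expected counts and 0.1 to 1.66 TPM per library. Its one called interval was 4 to 8 h in WT, from 0.67, 0.71 and 0.57 TPM to 0.15, 0.1 and 0.27 (log2 change -1.79, SE 0.672, adjusted p = 0.0298). That call was lost without mouse 4 (-1.62) or mouse 5 (-1.51), without both outlying 8 h libraries (-1.56), and with limma on log2(TPM + 1) (-0.49). From 0 to 24 h Ccnd1 was not called, at -0.89 in WT and -1.09 in cKO, but was without mouse 6 in WT (-1.71, adjusted p = 0.0152) and without mouse 1 in cKO (-1.65, adjusted p = 0.0258).

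The make-up of the D cyclin pool was read from the same levels, with no test over time. Ccnd2 made up 36.3 ± 0.838% of summed D cyclin TPM in WT at 0 h (SD, n = 3), 76.4 ± 1.45% at 4 h, 78.7 ± 3.44% at 8 h and 37.6 ± 0.451% at 24 h. In cKO the shares were 33.8 ± 1.45%, 75.5 ± 0.979%, 75.8 ± 4.86% and 40.2 ± 1.61%. In both genotypes every 4 h and 8 h library had a larger Ccnd2 share (71.1 to 82.2%) than any library of 0 or 24 h (32.7 to 42.1%). The summed level moved less than its parts: 357 ± 30.1, 417 ± 21.1, 363 ± 4.97 and 472 ± 13.5 TPM in WT, and 426 ± 22.8, 410 ± 23, 341 ± 16.9 and 529 ± 20.8 in cKO.

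**Figure D2:**
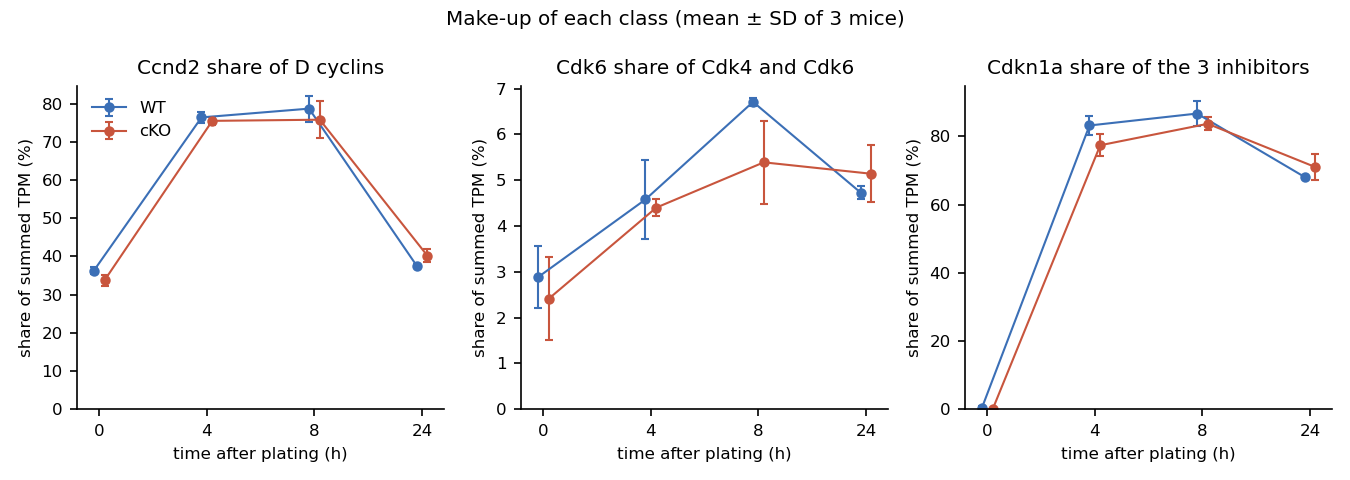
Share of summed TPM in percent (vertical axis, from 0) at 0, 4, 8 and 24 h (horizontal axis) for Ccnd2 among the 3 D cyclins, Cdk6 among Cdk4 and Cdk6, and Cdkn1a among the 3 inhibitors. Points are means of 3 mice and bars ± 1 SD, WT in blue and cKO in red; the Ccnd2 share rises from 36.3% to 76.4% in WT by 4 h and is back at 37.6% at 24 h, and the Cdk6 share is at most 6.8% in any library.

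The E cyclins rose late. Ccne1 fell first: WT libraries went from 30.3, 25.8 and 28.7 TPM at 0 h to 12, 11.6 and 15.4 at 4 h (log2 change -1.02, SE 0.141, adjusted p = 8.87e-08), and cKO libraries from 20.5, 25.3 and 24.4 to 14, 12.5 and 11.1 (-0.81, SE 0.14, adjusted p = 6.53e-06). By 8 h it had risen again, by 0.72 in WT (adjusted p = 9.37e-05) and 0.90 in cKO (adjusted p = 3.8e-06). At 24 h it stood at 127, 124 and 125 TPM in WT and at 147, 134 and 118 in cKO, above every earlier library. The rise from 8 to 24 h was 5.66-fold in WT (log2 change 2.50, SE 0.126, adjusted p = 7.83e-19) and 5.64-fold in cKO (2.50, SE 0.126, adjusted p = 8.53e-19).

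Ccne2, the paralogue of Ccne1, was barely detected until 8 h. Libraries of the first 8 h ranged from 0.28 to 2.22 TPM over both genotypes, and those of 24 h held 33.2, 34 and 33.4 TPM in WT and 42.6, 39.4 and 41 in cKO. The rise from 8 to 24 h was 20.1-fold in WT (log2 change 4.33, SE 0.264, adjusted p = 1.05e-14) and 35-fold in cKO (5.13, SE 0.279, adjusted p = 7.31e-16), and no earlier interval was called. From 4 to 8 h in WT the estimate was 0.86 (adjusted p = 0.101), with 2.12, 0.48 and 2.22 TPM at 8 h. Mouse 5 held the low value, and without it the change was 1.23 and was called. The change was called under 3 of 16 alternatives, among them DESeq2 with all libraries kept (0.88, adjusted p = 0.0378). Adjusted p ranged from 0.00488 to 0.813 over all 16. Ccne1 was the more abundant E cyclin at every time, and at 24 h its WT mean of 125 TPM stood above 33.5 for Ccne2.

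The kinase genes rose from the start. Cdk4, the main partner of the D cyclins here by level, went from 222, 223 and 237 TPM in WT at 0 h to 348, 341 and 300 at 4 h, 538, 511 and 520 at 8 h and 689, 714 and 681 at 24 h. The cKO libraries gave 263, 234 and 218, then 309, 331 and 302, then 510, 533 and 502, then 696, 692 and 696. The 4 times did not overlap in either genotype, and each interval was called in both. The whole rise was 3.15-fold in WT (log2 change 1.65, SE 0.09, adjusted p = 1.35e-18) and 3.07-fold in cKO (1.62, SE 0.0896, adjusted p = 2.29e-18), with the largest estimates from 4 to 8 h (0.72 and 0.76) and the smallest from 8 to 24 h (0.31 and 0.39). Reads of Tspan31, whose exons share 641 bases with those of Cdk4 on the other strand, cannot be told apart there without strand; Tspan31 had 33.2 ± 3.63 TPM at 0 h and 78.3 ± 1.99 at 24 h in WT.

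The start region of Cdk4 is shown because Cdk4 rose at every interval and because the regulator list below holds Myc, whose protein binds the E-box CACGTG as a dimer with MAX. RefSeq start windows of 300 bases (GRCm38.p6) were at hand for 7 of the 10 members; Ccnd1, Ccnd2 and Ccne2 had none. On both strands the E-box was searched in 32851 windows and 7.15% held at least 1. The Cdk4 window, chr10:127063285-127063584 on the plus strand, held 4, a number that 0.0244% of windows (8 in all) reach; the E-boxes are in capitals.

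Cdk4: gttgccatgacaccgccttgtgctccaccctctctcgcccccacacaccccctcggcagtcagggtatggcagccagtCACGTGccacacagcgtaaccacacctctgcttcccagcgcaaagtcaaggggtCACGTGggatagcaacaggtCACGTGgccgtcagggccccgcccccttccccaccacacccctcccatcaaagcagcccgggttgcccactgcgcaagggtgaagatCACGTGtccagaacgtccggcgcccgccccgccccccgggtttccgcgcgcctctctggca

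Cdk6 and 1 of the windows of Cdkn2c held 1 E-box each, and those of Ccnd3, Ccne1, Cdkn1a and Cdkn1b held none of these letters. The window of Ccne1 also held none of the E2F words TTTCCCGC, TTTCGCGC, TTTGCCGC and TTTGGCGC, which 2.26% of all windows hold on either strand. The window of Cdkn1b did not hold the FOXO word TGTTTAC, which 3.65% of all windows hold. In 1 of the windows of Ccnd3 it occurred 1 time. These matches describe the sequence only; no binding was measured.

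Cdk6, the second kinase of the D cyclins, rose from a low base. WT libraries held 8.42, 5.84 and 5.88 TPM at 0 h, 19.5, 17.2 and 11.3 at 4 h, 38.4, 37.3 and 37.1 at 8 h and 33.5, 34.8 and 35.1 at 24 h. The cKO libraries held 4.03, 5.76 and 7.48, then 14.7, 14.5 and 14.1, then 27.4, 26.1 and 34.4, then 32.3, 40.8 and 39.9. In WT the level had reached its highest mean by 8 h, and in cKO the highest mean was at 24 h. The first 4 h brought a 2.58-fold rise in WT (log2 change 1.37, SE 0.185, adjusted p = 7.53e-08) and a 2.72-fold rise in cKO (1.44, SE 0.186, adjusted p = 3.14e-08), and the next 4 h a 2.43-fold (adjusted p = 5.09e-08) and a 2.07-fold rise (adjusted p = 2.89e-06). From 8 to 24 h neither genotype was called: -0.23 in WT (adjusted p = 0.184) and 0.32 in cKO (adjusted p = 0.0646). The cKO value passed the threshold under 9 of 16 alternatives, with adjusted p from 0.00507 to 0.332 over all of them. Cdk6 made up 2.88 ± 0.678% of the summed TPM of both kinases at 0 h in WT and 6.71 ± 0.083% at 8 h.

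**Figure D3:**
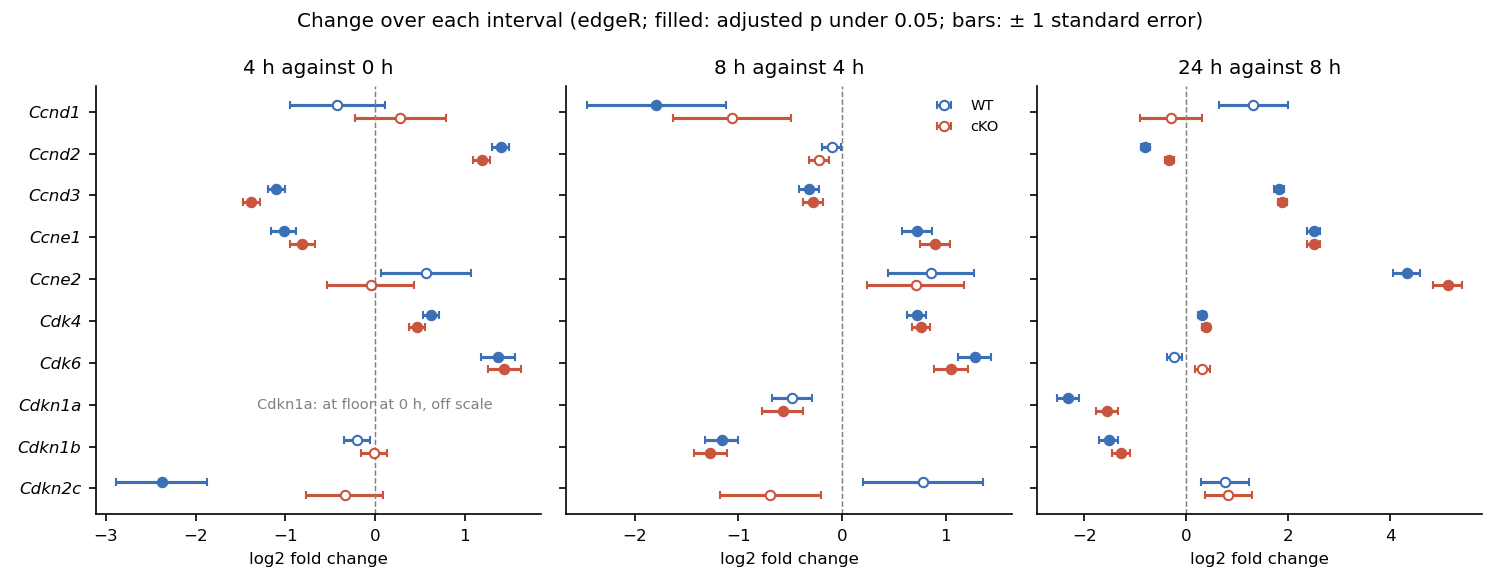
Log2 fold change of each gene (rows) over 0 to 4, 4 to 8 and 8 to 24 h (panels, horizontal axis) in WT (blue) and cKO (red), with bars of ± 1 standard error and filled points where edgeR's adjusted p was under 0.05. The first interval of Cdkn1a is left out because its 0 h level was at the floor; Ccnd2 and Ccnd3 lie on opposite sides of 0 in the first and the last interval.

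The inhibitors exchanged places. Cdkn1a, whose product p21 is a classical p53 target, was all but absent at rest: the WT libraries of 0 h held 3 counts in all (0.14, 0 and 0.25 TPM) and the cKO libraries none. At 4 h the WT libraries held 120, 141 and 79.1 TPM and the cKO libraries 96.8, 90.7 and 90.4. The WT ratio of 4 h to 0 h was 991, with a 95% counting interval of 339 to 4809, and the cKO level was at least 951-fold higher, against a floor of 3 counts over the 0 h group; intervals and floors cover counting error only. The WT ratio rests on those 3 counts, and without 1 mouse it ranged from 550 (without mouse 5) to 2284 (without mouse 6). Every library of 4, 8 and 24 h lay far above those of 0 h.

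Cdkn1a then declined. At 8 h it stood at 64.8, 95.9 and 70.3 TPM in WT and 54.2, 59.1 and 69.1 in cKO, and at 24 h at 18, 17.9 and 14.4 and at 22.9, 19.4 and 21.7. The fall from 4 to 8 h was 0.57 on the log2 scale in cKO (SE 0.198, adjusted p = 0.0282), a call lost without any 1 of mice 1, 2 and 3 (-0.46, -0.58 and -0.68). In WT the estimate was -0.48 (adjusted p = 0.0592), and it was called under 9 of 16 alternatives, among them DESeq2 (-0.47, adjusted p = 0.0283) and the mouse as a replicate block (-0.47, adjusted p = 0.0103); adjusted p ranged from 0.000155 to 0.464 over all 16. The fall from 8 to 24 h was called in both, by 2.32 in WT (SE 0.214, adjusted p = 3.69e-08) and by 1.55 in cKO (SE 0.211, adjusted p = 5.63e-06). Even so, the 24 h level was 142 times that of 0 h in WT (counting interval 48 to 692) and at least 217-fold higher in cKO.

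Of the start windows of Cdkn1a, the upstream one, chr17:29090729-29091028 on the plus strand, is shown because Cdkn1a is a p53 target. It held the letters ACATGT, the core of a p53 half-site, at 2 nearby places, in capitals; 5.28% of windows hold at least 1 such match and 0.329% at least 2. The downstream window held none.

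Cdkn1a: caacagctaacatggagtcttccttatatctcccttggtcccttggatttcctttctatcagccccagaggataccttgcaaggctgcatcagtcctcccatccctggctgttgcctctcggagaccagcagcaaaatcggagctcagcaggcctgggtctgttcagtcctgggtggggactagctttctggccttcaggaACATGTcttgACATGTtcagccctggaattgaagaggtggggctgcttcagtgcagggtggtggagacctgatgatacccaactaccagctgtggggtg

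Cdkn1b, whose product p27 holds resting lymphocytes out of the cycle, fell without return. WT libraries held 27.8, 24.2 and 24.5 TPM at 0 h, 18.8, 25 and 18.6 at 4 h, 11, 7.01 and 9.25 at 8 h and 3.26, 3.41 and 3.28 at 24 h. The cKO libraries held 21.3, 26.6 and 24.4, then 19.8, 21.6 and 26.5, then 9.6, 6.91 and 11, then 3.74, 3.74 and 4.09. The first 4 h brought no call (-0.20 in WT, adjusted p = 0.237; -0.01 in cKO, adjusted p = 0.96), and 0 h and 4 h libraries overlapped. From 4 to 8 h it fell by 1.16 in WT (SE 0.158, adjusted p = 2.21e-07) and 1.27 in cKO (SE 0.158, adjusted p = 4.33e-08), and from 8 to 24 h by 1.52 (SE 0.182, adjusted p = 6.39e-09) and 1.28 (SE 0.18, adjusted p = 1.87e-07). Over 24 h the level dropped 7.38-fold in WT and 5.91-fold in cKO. In each genotype Cdkn1b was the only member called lower at 24 h than at 0 h. That was 1 of 10, where 40.1% of all genes were called lower in WT and 39% in cKO. In each genotype 7 of 10 members were called higher, against 36.9% of all genes in WT and 37.3% in cKO.

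Cdkn2c, whose product p18 is the INK4 inhibitor among the members, was low and variable, with 2 to 46 expected counts per library. In WT it went from 10.6, 8.79 and 5.79 TPM at 0 h to 0.91, 3.17 and 0.52 at 4 h, 0.56, 2.68 and 3.75 at 8 h and 5.18, 4.78 and 3.63 at 24 h. In cKO it went from 7.49, 3.23 and 7.26 to 5.03, 2.68 and 5.82, then 2.06, 2.81 and 3.2, then 3.93, 4.3 and 6.48. The fall in the first 4 h was called in WT (log2 change -2.38, SE 0.506, adjusted p = 0.000121; -3.34 to -1.92 without 1 mouse) and was -0.34 in cKO (SE 0.433, adjusted p = 0.518), where the libraries of both times overlapped. The test of that difference gave 2.03 (SE 0.677, adjusted p = 0.567; unadjusted p = 0.00479), so the genotypes were not shown to differ in this step. No other interval of Cdkn2c was called; from 0 to 24 h in WT the estimate was -0.84 (adjusted p = 0.0599), and it was called when only the groups compared were fitted (-0.85, adjusted p = 0.0135).

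Cdkn1a accounted for 0.394 ± 0.411% of the summed TPM of the 3 inhibitors at 0 h in WT, 83.2 ± 2.66% at 4 h, 86.7 ± 3.57% at 8 h and 68.1 ± 0.537% at 24 h. In cKO the shares were 0, 77.4 ± 3.24%, 83.7 ± 1.91% and 71 ± 3.85%. The sum of these 3 genes rose and fell, from 34 ± 4.15 TPM to 136 ± 35.5, 88.4 ± 15.3 and 24.6 ± 2.89 in WT. In cKO it went from 30.1 ± 1.45 to 120 ± 4.22, 72.6 ± 9.35 and 30.1 ± 2.44. Of the other inhibitor genes, Cdkn1c, Cdkn2a and Cdkn2b did not pass the filter. Cdkn2d, the gene of the INK4 inhibitor p19, is not a member and is not in these shares and sums. It was the most abundant inhibitor transcript at rest, at 151 ± 12 TPM in WT. Its WT means were 42.8 ± 2.72 TPM at 4 h, 20.8 ± 2.06 at 8 h and 33 ± 1.79 at 24 h. The 24 h mean was above that of Cdkn1a, 16.8 ± 2.07 TPM. Cdkn2d fell by 1.73 on the log2 scale by 4 h (adjusted p = 1.28e-13) and by a further 0.99 by 8 h (adjusted p = 1.66e-06). From 8 to 24 h it rose by 0.57 (adjusted p = 0.00138).

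Within the 8 h groups, the libraries of cKO mouse 2 and WT mouse 5, the furthest along the first principal component, held the lowest Ccnd3 of their genotype (64.2 TPM in both) and the lowest Cdkn1b (6.91 and 7.01). WT mouse 5 also held the lowest Ccne2 and the highest Cdkn1a. Without these 2 libraries the 4 to 8 h change of Ccnd3 in cKO was -0.15 and was not called, and that of Cdkn1a in WT was -0.75 and was called.

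The libraries labelled cKO and WT were then compared at each time. None of the 10 members was called at 0, 4, 8 or 24 h, where 0.445%, 0.82%, 0.183% and 0.105% of all genes were. At an unadjusted p under 0.05 the members counted 2, 1, 3 and 1 of 10, against 7.37%, 11.8%, 9.93% and 3.69% of genes. DESeq2, run as an alternative, also called 0 members at each time. The median difference of the members, cKO against WT on the log2 scale, was -0.09 at 4 h, -0.06 at 8 h and 0.12 at 24 h, against 0, -0.03 and 0.01 over all genes. At 0 h, where Cdkn1a was at the floor in both genotypes and has no fold, the median of the other 9 was -0.11.

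The 3 smallest p-values at 0 and 24 h belonged to cyclins whose genotypes did not overlap. Ccnd3 at 0 h was 274 to 291 TPM in cKO and 212 to 245 in WT, a log2 difference of 0.27 (SE 0.0927, adjusted p = 0.34), and all 3 cKO libraries were higher. Ccne1 at 0 h was lower in all 3 cKO libraries, at -0.30 (SE 0.129, adjusted p = 0.542). Ccnd2 at 24 h was 208 to 216 TPM in cKO and 173 to 184 in WT, a difference of 0.26 (SE 0.0941, adjusted p = 0.826), again with all 3 cKO libraries higher. These differences failed the correction over all genes. When only the 6 libraries of 24 h were fitted, 2 members were called, Ccnd2 (0.25, adjusted p = 0.000316) and Ccne2 (0.28, adjusted p = 0.0306); that fit called 100 of the 10350 genes it tested. The range of adjusted p over all alternatives was 0.000316 to 1 for Ccnd2 and 0.0306 to 1 for Ccne2.

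At 4 h the largest estimate was Cdkn2c, 1.51 higher in cKO (SE 0.542, adjusted p = 0.224; 1.12 to 2.51 without 1 mouse), with 2.68 to 5.82 TPM against 0.52 to 3.17, so that the groups overlapped. At 8 h the largest estimate was Ccnd1, higher in all 3 cKO libraries (0.29 to 0.49 against 0.1 to 0.27 TPM), at 1.11 (SE 0.717, adjusted p = 0.599; 0.87 to 1.59 without 1 mouse). This estimate rests on 19 expected counts over the cKO group and 9 over the WT group. Over all alternatives it ranged from 0.26 to 1.59. Cdk6 was lower in all 3 cKO libraries (26.1 to 34.4 against 37.1 to 38.4 TPM), at -0.43 (SE 0.152, adjusted p = 0.305). Cdkn1a (-0.43, SE 0.198, adjusted p = 0.489) and Ccnd2 (-0.21, SE 0.094, adjusted p = 0.448) were the other members with an unadjusted p under 0.05 at 8 h, and both overlapped. Genotypes did not overlap in 2, 0, 2 and 4 of 10 members at 0, 4, 8 and 24 h, against 13.5%, 16%, 10.5% and 13.5% of genes; those of 24 h were Ccnd2, Ccne2, Cdkn1a and Cdkn1b, all higher in cKO. For Cdk4 the 95% intervals of the log2 difference, in order of time, were -0.15 to 0.23, -0.30 to 0.07, -0.26 to 0.11 and -0.18 to 0.18, the narrowest among the members; for Cdkn2c at 24 h it was -0.77 to 1.00.

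**Figure D4:**
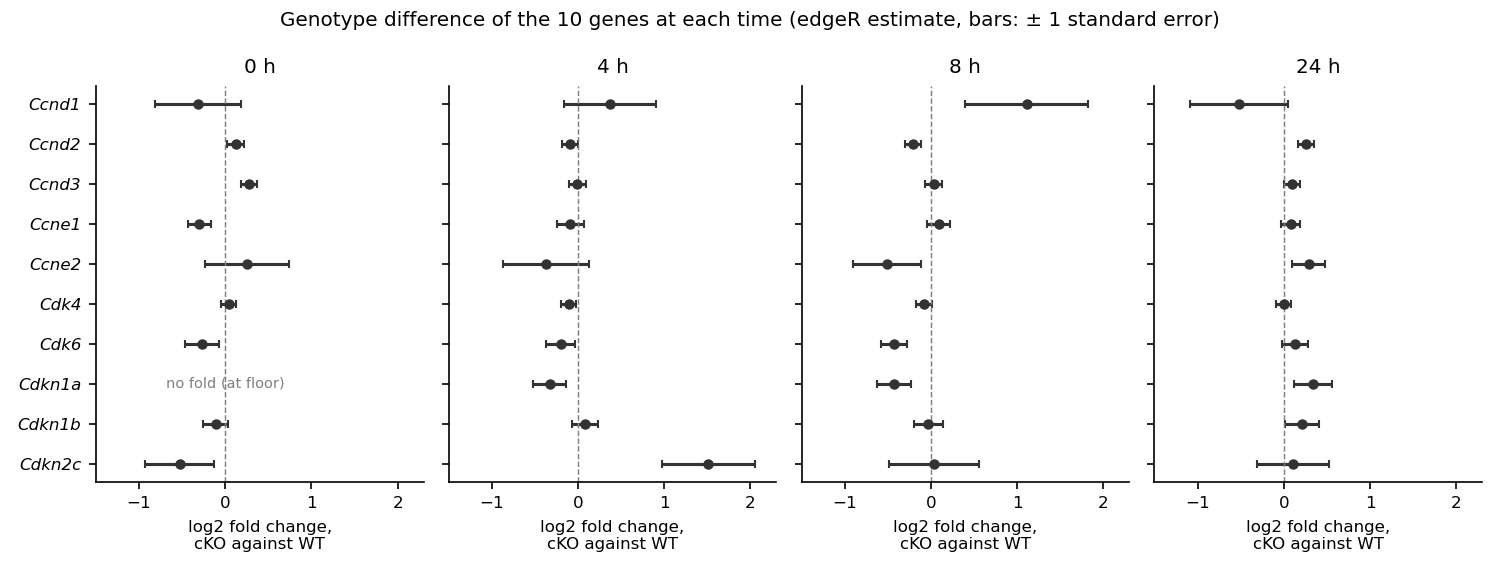
Log2 difference between cKO and WT (horizontal axis) of each G1 gene (rows) at 0, 4, 8 and 24 h (panels), as edgeR estimates with bars of ± 1 standard error. No gene passed the adjusted threshold; Ccnd1 and Cdkn2c, with few counts, have the longest bars, and Cdkn1a at 0 h has no fold.

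The tests of whether an interval differed between genotypes called none of the members, and 0.00872%, 0.061%, 0.00872% and 0.0174% of all genes for 0 to 4, 4 to 8, 8 to 24 and 0 to 24 h. At an unadjusted p under 0.05 the members counted 2, 0, 3 and 1 of 10, against 7.11%, 8.51%, 4.45% and 4.29% of genes. From 8 to 24 h these were Ccnd2 (0.47, SE 0.133, adjusted p = 0.972), Cdk6 (0.55, SE 0.211) and Cdkn1a (0.77, SE 0.298), each with the higher estimate in cKO. The shares of the D cyclin, kinase and inhibitor pools were compared between genotypes with a two-sided exact permutation test over 3 against 3 mice, which cannot go below p = 0.1. Of the 12 comparisons the smallest gave exact p = 0.1 (0.3 after Benjamini-Hochberg adjustment), among them the Cdk6 share at 8 h, 5.39% in cKO and 6.71% in WT.

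Other genes of G1 control were read from lists chosen with earlier results of these data known. Of 14 other cyclins, kinases and their helpers, 6 rose and 5 fell by 4 h in WT, where 30% of all genes rose and 29.1% fell. From 4 to 8 h 6 rose and 2 fell (21.9% and 19.7% of all genes), and from 8 to 24 h 11 rose and 2 fell (24.7% and 34.1%). Cks1b, a small subunit of cyclin-dependent kinases, rose by 2.06 (SE 0.144, adjusted p = 6.32e-15) in the first 4 h, from 16.4 to 65.3 TPM. It went on rising, to 116 TPM at 8 h and 421 at 24 h in WT. In cKO the change of Cks1b was 1.48 in the first 4 h and 1.99 from 8 to 24 h. Cdk1, the kinase of mitosis, rose late, by 7.14 (SE 0.202, adjusted p = 4.91e-25) from 8 to 24 h, when its WT level reached 137 ± 2.45 TPM. Cdk2, the partner of cyclin E, rose by 1.84 (adjusted p = 3.08e-17) in the same interval, from 21.7 to 83.4 TPM. The list's median was 1.61 from 8 to 24 h, against -0.12 over all genes.

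The listed S phase genes, and most of the listed RB and E2F genes, rose from 8 to 24 h, when both E cyclins rose. E2F activity was not measured. All 18 of 18 S phase genes were called higher from 8 to 24 h in WT and in cKO, where 24.7% and 25.2% of all genes were, with medians of 2.57 and 2.52. Tk1, thymidine kinase, went from 0.933 to 135 TPM in WT (log2 change 7.15, adjusted p = 9.88e-24) and Mcm3, a subunit of the replicative helicase, from 78.7 to 489 TPM. In the first 4 h 8 of the 18 rose and 3 fell in WT, and 2 rose and 5 fell in cKO, where 30% of all genes rose and 29.1% fell in WT and 29.6% and 27.6% in cKO; the median was 0.25 and -0.02. The test of the difference between genotypes over that interval called 0 of the 18. Of 13 RB and E2F genes 9 rose and 2 fell from 8 to 24 h in WT (24.7% and 34.1% of all genes), led by E2f8, a repressive E2F, at 6.10 (adjusted p = 2.76e-15), and E2f3 at 2.55 (adjusted p = 1.24e-12). E2f4 was called lower in cKO at 4 h (-0.51, SE 0.129, adjusted p = 0.0445), and of the S phase genes Ung, uracil-DNA glycosylase, was lower in cKO at 4 h (-0.58, SE 0.118, adjusted p = 0.00829). These were the 2 calls by genotype among the 85 other listed genes tested.

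Of 13 genes of the p53 response, 8 rose and 0 fell in the first 4 h in WT, and 8 rose and 2 fell in cKO. Among all genes 30% rose and 29.1% fell in WT, and 29.6% rose and 27.6% fell in cKO. The medians of the list were 0.60 in WT and 0.63 in cKO. Bax, a promoter of apoptosis, went from 138 to 352 TPM in WT (1.43, adjusted p = 2.4e-12), Aen, a nuclease gene, from 41.8 to 127 (1.69, adjusted p = 5.59e-15), and Plk2 rose by 3.08 (adjusted p = 1.22e-09). From 8 to 24 h 2 rose and 6 fell in WT (24.7% and 34.1% of all genes), with Trp53inp1 (-3.76, adjusted p = 3.37e-18) and Btg2 (-1.97, adjusted p = 9.55e-18) in front.

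Of 12 upstream regulators 6 rose and 3 fell in the first 4 h in WT (30% and 29.1% of all genes), and 1 rose and 7 fell in the next 4 h (21.9% and 19.7%). Myc rose by 3.11 in the first 4 h (SE 0.102, adjusted p = 4.37e-24), from 144 ± 13.9 to 1160 ± 39.8 TPM, and fell by 1.30 from 8 to 24 h. Il2ra, the alpha chain of the IL2 receptor, rose by 8.21 (adjusted p = 9.85e-29), from 0.327 to 86.7 TPM. Foxo1, a factor known to act on Cdkn1b, was lower at 24 h than at 0 h by 1.99 (adjusted p = 1.35e-18), with 38.6 and 9.42 TPM, and Klf2, a quiescence factor, by 6.89 (adjusted p = 7.68e-21). Of 14 genes that act on cyclin and inhibitor turnover, 8 were higher and 3 lower at 24 h than at 0 h in WT, where 36.9% of all genes were higher and 40.1% lower. Cul1, the scaffold of the ubiquitin ligase that takes p27 through SKP2, rose from 25.2 to 70.7 TPM (1.54, adjusted p = 1.35e-15). Rnf123, another gene of this list, fell from 56.5 to 15.8 TPM (-1.79, adjusted p = 1.05e-16). Usp28, a deubiquitinase, was lower by 2.66 (adjusted p = 4.55e-20).

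**Figure D5:**
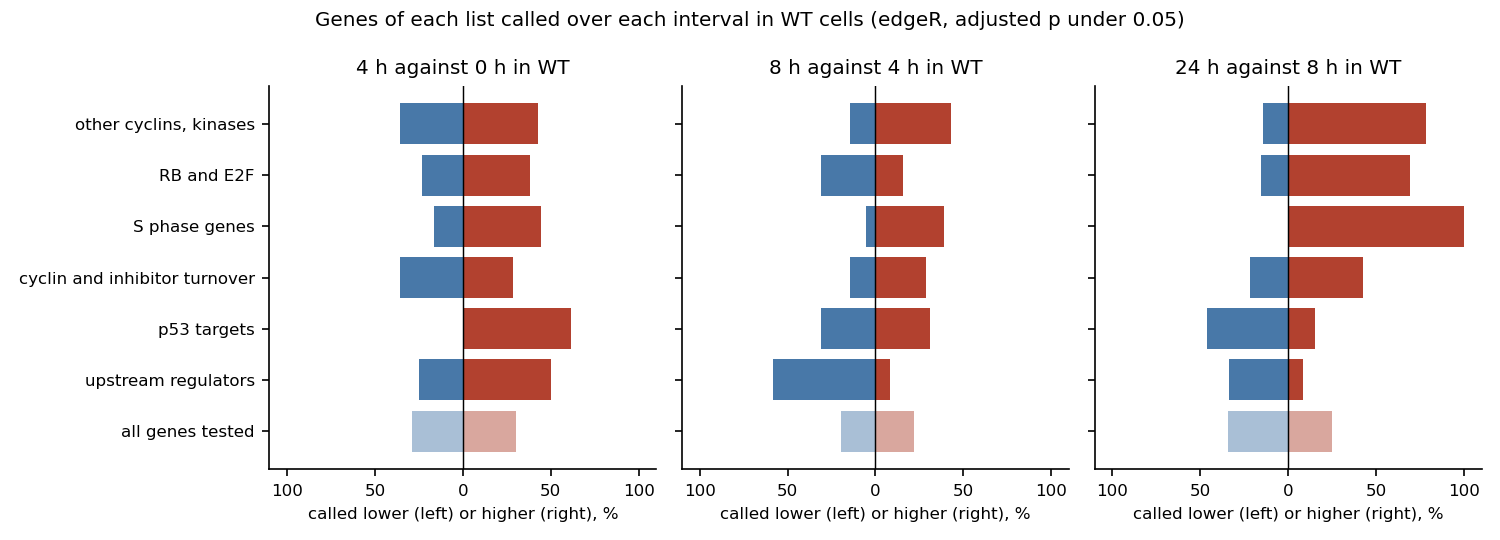
Share of the tested genes of each list (rows) called higher (red, right of 0) or lower (blue, left of 0) by edgeR in WT over 0 to 4, 4 to 8 and 8 to 24 h (panels, horizontal axis in percent). The pale bottom row gives all genes tested; the S phase list is wholly on the right in the last interval, and the p53 list has no gene on the left in the first.

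The genes whose course over the 8 group means was most like that of each member were taken by Pearson correlation of mean log2 CPM, with n = 8 groups, of which those of a genotype share their mice, and no test. Ccne2 was closest to Fen1, a flap endonuclease of replication (r = 0.999), and Mcm3 (0.998). Cdkn1a was closest to Tnf, an inflammatory cytokine (0.998). Ccnd2 was closest to Cxcl10, a chemokine (0.993), and Atxn3 (0.991), and Ccnd3 was close to Galk2 (0.992). Cdk6 was closest to Mogs and Cstf2 (both 0.997), Ccne1 to Med9 (0.998) and Smo (0.997), and Cdkn1b to Zfp276 (0.999) and Pcmtd2 (0.998). Among the members themselves Ccnd2 and Cdkn1a had r = 0.95, Ccne1 and Ccne2 r = 0.95, and Ccnd2 and Ccnd3 r = -0.79.

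Some members share exon bases with a gene on the other strand in the GENCODE annotation of GRCm38, and Smart-seq2 does not mark strand. Besides Cdk4, these include Ccne2 with Ints8 (609 bases), Ccnd3 with Bysl (361 bases), and Ccnd1 with LTO1 (1100 bases). LTO1 was not among the genes quantified under that name, so its level is not given. Its part in the few counts of Ccnd1 was not tested. Ccnd2 shares 372 bases with Gm43126 and 368 with 9330179D12Rik, Cdk6 shares 368 with Gm17590, and Cdkn1a shares 273 with AC167363.2. Ints8 had 6.39 ± 0.813 TPM at 8 h and 8.64 ± 0.753 at 24 h in WT, while Ccne2 went from 1.61 to 33.5. Bysl had 20.8 ± 4.22 TPM at 0 h and 58 ± 1.79 at 4 h in WT, opposite in direction to Ccnd3. A pseudogene, Ccnd3-ps, matches Ccnd3 at 96.6% over 417 bases and is not among the genes quantified here. The count of Ccnd3 could be off in that stretch, which was not tested.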

How the data were processed

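Each of the 24 libraries came with a table of the authors' RSEM output. Per the file headers it holds the deposited expected count of each gene, which need not be whole, and the deposited TPM, scaled for effective length to a fixed sum. Per the submitters' processing notes the authors used STAR, RSEM and DESeq2 with the mouse build mm10; their versions and roles and the strand setting were not given in the sources used here.

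Expected counts were rounded to whole numbers, genes were filtered with filterByExpr, libraries were scaled by TMM, and edgeR 4.0.16 (R 4.3.3) fitted robust quasi-likelihood models of the 8 groups without a block. Adjusted p-values are Benjamini-Hochberg over 11470 genes in each comparison. Standard errors and 95% intervals were derived from the F statistics on 16 residual degrees of freedom. TPM values were used for levels and shares. Alternatives used DESeq2 1.42.0 and limma 3.58.1, and the scripts were tested on simulated data. Promoter windows and positions came from RefSeq and GENCODE release M21 tables of GRCm38.

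The 10 members are named in every comparison, and up to 3 called genes of each list with the smallest adjusted p; the values printed are a part of these. Some genes with similar courses and a marker gene are not reported here. The members and lists were chosen with earlier results of these data known. Libraries of the 4 times are paired by mouse in the labels; deviations of the same mouse at different times correlated with a median r of 0.0181 over 36 pairs, and those of different mice with -0.00726 over 72 pairs. No 2 replicates held identical values. With 3 mice a group, precision is limited, and Ccnd1 and Cdkn2c, with at most 24 and 46 expected counts per library, were measured least precisely.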

Additional observations from a re-analysis of the deposited data

How the results depend on the processing

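Of the 125 log2 values of members compared across settings, those over time in WT kept their direction and side of the threshold in 607 of 629 alternative values, those in cKO in 592 of 629, and the genotype differences in 540 of 574. The 6 interactions of members with an unadjusted p under 0.05 were refitted as well, and all 95 of their 95 values stayed uncalled in the same direction; the other interactions were not refitted one by one. The count of members called by genotype changed under 1 setting, from 0 to 2 at 24 h when only the groups compared were fitted; over all genes that setting called 100 in place of 12, and the cause was not tested. With no filter on low counts, the genotype counts over all genes were 136, 249, 135 and 32 in place of 51, 94, 21 and 12, and with DESeq2 84, 216, 67 and 27; leaving out 1 mouse gave, in the same order, 21 to 94, 32 to 156, 7 to 66 and 6 to 19. The split of all genes called from 8 to 24 h in WT, 2828 higher and 3906 lower, was 3043 and 3025 with at least 5 CPM in 3 libraries and 3366 and 3079 with limma. With the mouse as a replicate block, which pairs times within an animal, Cdkn1a from 4 to 8 h in WT was the only member value to change sides (-0.47, adjusted p = 0.0103).

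Leaving out each mouse in turn turned the sign of these genotype differences, none of them called, on the log2 scale: at 0 h for Ccnd1 (-0.71 to 0.29), Ccne2 (-0.24 to 0.68), Cdk4 (-0.05 to 0.14); at 4 h for Ccnd1 (-0.10 to 0.61), Ccnd3 (-0.05 to 0.06), Ccne1 (-0.17 to 0.05), Ccne2 (-0.74 to 0.03), Cdkn1b (-0.02 to 0.21). The same held at 8 h for Ccnd3 (-0.07 to 0.15), Ccne1 (-0.07 to 0.24), Cdkn1b (-0.13 to 0.10), Cdkn2c (-0.39 to 0.50) and at 24 h for Cdk4 (-0.03 to 0.03), Cdkn2c (-0.16 to 0.25). It also turned uncalled changes over time: from 0 to 4 h in WT for Ccnd1 (-0.72 to 0.15), from 4 to 8 h in WT for Ccnd2 (-0.20 to 0.07), Cdkn2c (-0.07 to 1.64), from 0 to 4 h in cKO for Ccnd1 (-0.55 to 0.79), Ccne2 (-0.48 to 0.31), Cdkn1b (-0.13 to 0.08), from 8 to 24 h in cKO for Ccnd1 (-0.57 to 0.06), from 0 to 24 h in cKO for Cdkn2c (-0.40 to 0.17). Ccnd3 at 4 h was 0.00 with DESeq2 or its size factors and 0.03 with limma on log2(TPM + 1), and Cdkn1b at 8 h was 0.01 with the stricter filter or limma, 0.00 within the groups compared and 0.00 without the 8 h libraries of mice 2 and 5. Without the 4 h library of mouse 3, Ccne1 at 4 h was 0.01, Cdkn1b at 4 h -0.02 and Ccne2 from 0 to 4 h in cKO 0.25. The cause of these turns was not tested.

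Shares of TMM-scaled CPM, which are not per length, differ from those of TPM by construction, since Ccnd2 and Cdk6 transcripts are longer than their counterparts. The Ccnd2 share of D cyclins was 62.7% in WT at 0 h, 90.4% in WT at 4 h, 91.6% in WT at 8 h, 64.5% in WT at 24 h, 60.3% in cKO at 0 h, 89.9% in cKO at 4 h, 90.2% in cKO at 8 h, 67% in cKO at 24 h. The Cdk6 share of Cdk4 and Cdk6 was 5.32% in WT at 0 h, 8.4% in WT at 4 h, 12.1% in WT at 8 h, 8.64% in WT at 24 h, 4.47% in cKO at 0 h, 8.1% in cKO at 4 h, 9.82% in cKO at 8 h, 9.36% in cKO at 24 h. The Cdkn1a share of the 3 inhibitors was 80.2% in WT at 4 h, 71.2% in WT at 24 h.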
